A study of Homo sapiens with 17 samples.

Results

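Of 206881 peaks on chromosomes 1 to 22 and X in 8 Flag ChIP-seq peak lists, 9657 had a summit no more than 1 kb from an end of a protein-coding gene. The ends are those of the 19974 protein-coding genes of RefSeq GRCh38.p14 on these chromosomes, and the summit is the base of highest signal that the peak caller gave. A gene with such a summit at its start, its far end or both is said here to be held by that list. The rule used position only, so the strength of these peaks, their overlap between lists, the letters of the promoters and the genes shared by factors are measures that did not choose them.

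The cells were U2OS, a human osteosarcoma line, carrying a doxycycline-inducible (Tet-on) transgene for a Flag-tagged factor. The 8 groups were FOXA1, FOXA2 and FOXA3, each as full-length protein and with the CTD deleted (dCTD in the labels), SOX2, and SOX2 fused to the FOXA2 CTD. All were induced with 500 ng/ml doxycycline for 4 days according to the treatment label (the extraction label writes the same figure per microlitre). Each group had 2 biological replicates and there was 1 input, 17 samples in all. Every group overexpresses its factor, the labels do not say whether a stable line is 1 clone, and they name no change to the cells' own FOXA or SOX genes. Each group gave 1 combined list, so no test between groups was possible, and the 95% intervals given with shares cover counting error alone. Read depth is not given in the files used. Peak strength below is the lower of the 2 replicates' -log10 p of a peak, and the strength of a gene is that of its strongest gene-end peak. Because lists differ in depth and limit, strength is also given as a percentile among the gene-end genes of the same list. A gene not held by a list had no listed summit within 1 kb of an end, which does not show that the factor was not there: a peak may have missed that list's limit, or a listed summit may lie just past 1 kb.

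FOXA proteins bind DNA through a winged-helix forkhead domain, recognise words close to TGTTTAC, and are known as pioneer factors of endoderm and liver that can bind sites inside compact chromatin. Most of the sites they are known for lie in distal enhancers. SOX2 binds through an HMG box to words such as ACAATG and ACAAAG and is known from pluripotent and neural cells. The start of a protein-coding gene is where the promoter lies, and many human promoters are rich in CG dinucleotides, in GGGCGG boxes read by SP and KLF factors, and in CCGGAAG words read by ETS factors. The far end is where the transcript is cut and polyadenylated.

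The 5 promoters below are starts at which several FOXA lists had a summit, with and without an exact forkhead word. GTF3C2 and CPOX have TGTTTAC near the summits. SLC22A10, CREBL2 and SF3B6 have neither TGTTTAC nor its variant TGTTTGC in the 250 bases shown. Other words close to TGTTTAC were not searched, and some CREBL2 and SF3B6 summits lay past those bases. GTF3C2 (a subunit of the RNA polymerase III factor TFIIIC) and CPOX (a haem synthesis enzyme) were picked after their values were seen, as the genes at the top of the count of FOXA lists with a summit within 50 bp of TGTTTAC. Each line gives the 250 bases before the annotated start, 5′ to 3′ on the gene's strand, from RefSeq on GRCh38.p14. Capitals mark exact matches, on either strand, to the words searched.
GTF3C2: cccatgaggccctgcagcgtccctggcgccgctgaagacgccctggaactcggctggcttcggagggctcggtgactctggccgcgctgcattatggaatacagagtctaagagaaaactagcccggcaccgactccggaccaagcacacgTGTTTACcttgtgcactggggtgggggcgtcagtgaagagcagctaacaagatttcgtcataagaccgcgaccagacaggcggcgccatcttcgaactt
CPOX: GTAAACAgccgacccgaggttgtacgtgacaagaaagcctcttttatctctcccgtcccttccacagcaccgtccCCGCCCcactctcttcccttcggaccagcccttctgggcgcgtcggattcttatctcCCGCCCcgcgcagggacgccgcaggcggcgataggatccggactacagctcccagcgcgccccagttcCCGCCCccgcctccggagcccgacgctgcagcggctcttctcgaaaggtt
SLC22A10: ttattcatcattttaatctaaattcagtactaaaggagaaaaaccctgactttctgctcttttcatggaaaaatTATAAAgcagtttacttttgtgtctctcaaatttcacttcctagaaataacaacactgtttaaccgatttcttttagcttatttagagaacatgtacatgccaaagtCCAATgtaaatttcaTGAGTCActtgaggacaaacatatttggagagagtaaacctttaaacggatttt
CREBL2: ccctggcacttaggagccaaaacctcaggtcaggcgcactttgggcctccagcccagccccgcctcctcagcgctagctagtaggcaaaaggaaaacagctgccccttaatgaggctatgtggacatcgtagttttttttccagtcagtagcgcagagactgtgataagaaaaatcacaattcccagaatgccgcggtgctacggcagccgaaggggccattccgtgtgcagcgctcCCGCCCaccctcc
SF3B6: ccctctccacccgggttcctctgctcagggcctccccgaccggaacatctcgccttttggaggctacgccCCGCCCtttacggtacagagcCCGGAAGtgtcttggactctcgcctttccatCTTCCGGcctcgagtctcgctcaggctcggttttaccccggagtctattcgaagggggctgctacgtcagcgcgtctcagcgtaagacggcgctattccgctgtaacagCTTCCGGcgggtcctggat
The GTF3C2 window is chr2:27356765-27357014 on the minus strand and overlaps the lncRNA gene GTF3C2-AS2. Its TGTTTAC is centred at -96 bp from the start, and the summits lay at -91 bp for full-length FOXA1, -92 bp for FOXA1 without the CTD, -46 bp for full-length FOXA2, -100 bp for FOXA2 without the CTD and -93 bp in both FOXA3 lists. Strength there was 9.85, 3.47, 5.19, 5.37, 12.6 and 12.6 in the same order. All of the FOXA lists thus had a GTF3C2 peak, and neither SOX2 list did. The CPOX window is chr3:98593612-98593861 on the minus strand. It carries the forkhead word in reverse (GTAAACA), centred at -247 bp, and 3 reversed GGGCGG boxes. CPOX summits lay between -276 and -218 bp in 5 FOXA lists, with strengths of 4.08 for full-length FOXA1, 2.24 and 5.73 for full-length and CTD-deleted FOXA2, and 11.7 in both FOXA3 lists. FOXA1 without the CTD had no CPOX peak. The SLC22A10 window (an organic anion transporter family gene; chr11:63289653-63289902, plus strand) holds a TATAAA word, a CCAAT box and the reverse of the AP-1 word TGACTCA, centred at -51 bp. The summits at SLC22A10 lay between -65 and -40 bp in all 6 FOXA lists. The CREBL2 window (chr12:12611626-12611875, plus strand) holds 1 reversed GGGCGG, and the SF3B6 window (chr2:24076327-24076576, minus strand) holds 1 reversed GGGCGG and 3 CCGGAAG words, 2 of them reversed.

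Full-length FOXA1 and FOXA2 reached gene starts more often than far ends, and full-length FOXA1 did so far more often than FOXA1 without the CTD. Full-length FOXA1 had 2133 gene-end peaks, 5.73% of its list, at 2260 genes (11.3% of protein-coding genes), and FOXA1 without the CTD had 1229, 2.45% of its list, at 1266 genes (6.34%). Full-length FOXA2 had 2458 peaks at 2568 genes (12.9%), and FOXA2 without the CTD had 2282 at 2348 genes (11.8%). Both FOXA3 lists were small, with 350 peaks at 387 genes (1.94%) for the full-length protein and 401 at 447 genes (2.24%) without the CTD. SOX2 had 26 gene-end peaks at 32 genes (0.16%), and the SOX2-FOXA2 CTD fusion had 778 at 894 genes (4.48%). At least 1 list held 5194 genes (26%). A strand, and so a start, was known for 15812 of the 19974 genes, and peaks at the others are counted as gene-end peaks of unknown side.

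Starts took 3.58% of the full-length FOXA1 list (95% Wilson interval 3.40% to 3.78%, 1334 peaks) and 0.988% of the list without the CTD (0.905% to 1.08%, 495 peaks). That is a difference of -2.60 percentage points (Newcombe interval -2.81 to -2.39). Far ends took 1.19% (1.08% to 1.30%) and 1.03% (0.943% to 1.12%) of the same lists. Full-length FOXA1 therefore had 3.02 start peaks for each far-end peak, and FOXA1 without the CTD had 0.961. For FOXA2, starts took 3.17% (3.01% to 3.34%) at full length and 2.48% (2.35% to 2.62%) without the CTD, and start peaks outnumbered far-end peaks 2.22 and 2.24 times. The FOXA2 difference in start share was -0.692 points (-0.903 to -0.483). FOXA3 starts took 3.50% and 3.77% of the lists, and the interval of that difference, 0.268 points (-0.384 to 0.916), includes no difference. SOX2 had 23 start peaks and 1 far-end peak, and the fusion had 601 and 62, so that starts took 1.68% (1.13% to 2.52%) and 7.66% (7.09% to 8.27%) of their lists.

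**Figure D1:**
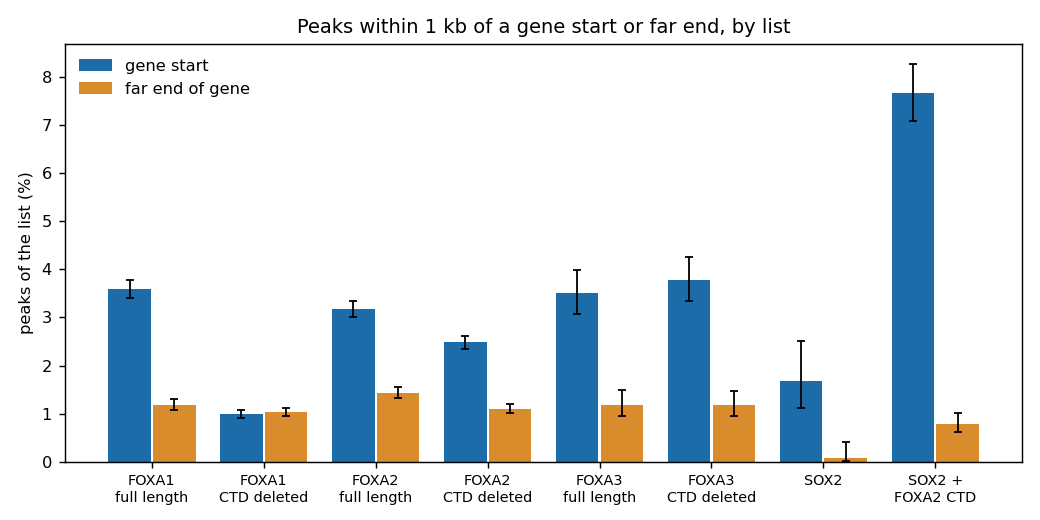
Share of each list's peaks (%, vertical axis) with a summit within 1 kb of a gene start (blue) or of a far end (orange), for the 8 lists; bars are shares and lines 95% Wilson intervals. FOXA1 without the CTD is the list of the 6 FOXA lists in which starts take no larger share than far ends, 0.988% against 1.03%.

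Start peaks were commoner among the weaker peaks of most lists. In full-length FOXA1, starts made up 2.19% of the strongest quintile of the list and 6.89% of the weakest. The same shares were 0.559% and 1.11% for FOXA1 without the CTD, 2.35% and 3.50% for full-length FOXA2, and 2.4% and 2.57% for FOXA2 without the CTD. In the fusion they were 3.00% and 9.89%, and in SOX2 0 of 273 peaks (an upper Wilson bound of 1.39%) and 5.13%. The median strength of full-length FOXA1 start peaks was 3.48, against 4.09 at far ends only and 4.08 away from gene ends. Their replicates were unequal: the medians of the 2 replicate -log10 p columns were 3.65 and 6.48 at starts, and 5.30 and 5.33 at far ends only. The part of that imbalance in the start result was not tested. Among the strongest quintile of each list the start share was still lower without the CTD for FOXA1.

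Summits at starts gathered just upstream of the annotated position in the full-length FOXA1 and FOXA3 lists. Positions are signed along the gene, with negative values upstream. The median was -71 bp for full-length FOXA1, with 48.1% of its start peaks within 250 bp, and -120 bp without the CTD, with 26.7%. Full-length FOXA2 was shifted into the gene, at a median of 63 bp with 42.2% within 250 bp, while FOXA2 without the CTD was at -88 bp with 34.3%. In FOXA2 the full-length summits were upstream of the start in 42.3% of cases and the CTD-deleted ones in 58.0%. The FOXA3 medians were -63 and -57 bp, with 55.9% and 56.9% within 250 bp, and the fusion was centred on the start at 5 bp, with 58.2%.

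**Figure D2:**
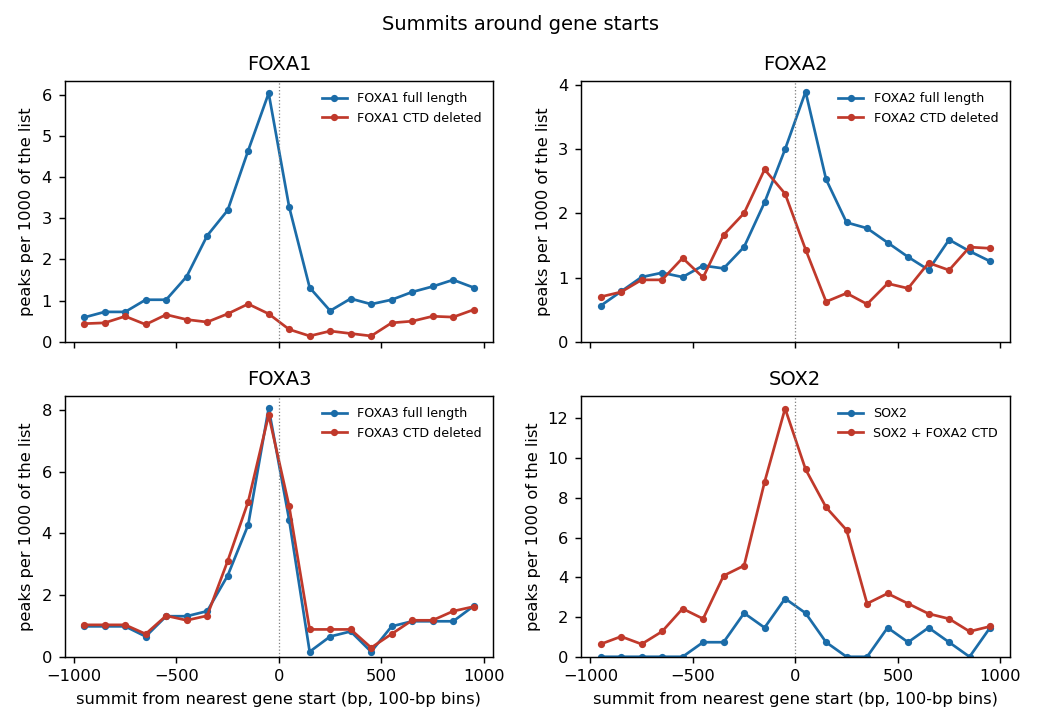
Start peaks per 1000 peaks of a list (vertical axes, which differ between panels) in 100-bp bins of the distance from summit to the nearest gene start (horizontal axis, bp, negative upstream); blue is the full-length FOXA or SOX2 list, red its CTD-deleted or fusion partner. The sharp maximum just upstream in full-length FOXA1, where the median is -71 bp, is lower and broader without the CTD: the highest bin holds 16.9% of start peaks at full length (-100 to 0 bp) and 9.29% without the CTD (-200 to -100 bp).

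The forkhead word TGTTTAC was commoner in promoters with a FOXA summit than in promoters at large. Promoters here are the RefSeq windows from 250 bases before to 50 after the start, placed at the gene start for 13260 genes, and 332 of them (2.5%; 2.25% to 2.78%) hold the word on either strand. With the summit inside the window, the word was present in 35.9% (27.3% to 45.5%, 37 of 103) of full-length FOXA3 promoters and 34.7% (26.8% to 43.5%) of those of FOXA3 without the CTD. It was in 8.81% (6.67% to 11.6%) and 13.7% (8.36% to 21.7%) of FOXA1 promoters at full length and without the CTD. The FOXA2 shares were 10.4% (7.59% to 14%) and 19.1% (15.3% to 23.6%), with intervals that do not overlap. The fusion had 2.03% (0.871% to 4.67%), a share whose interval includes that of all promoters. At least 1 of the SOX words ACAATG and ACAAAG was in 19.4% of all promoters and 18.7% of those with a fusion peak within 1 kb of the start. With the summit inside the window the SOX word shares were 22.8% (17.97% to 28.4%, 56 of 246) for the fusion and 44.4% (18.9% to 73.3%, 4 of 9) for SOX2, with intervals that include the share of all promoters, and 20.3% to 26.5% in the 6 FOXA lists.

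Where a window held both summit and TGTTTAC, these lay close together in the FOXA lists. The median distance was 15 and 16 bp for FOXA3 at full length and without the CTD, with 34 of 37 and 39 of 42 within 50 bp. It was 28 and 33.5 bp for FOXA1, and 44 and 31 bp for FOXA2, where 21 of 36 and 55 of 66 were within 50 bp. The 5 fusion windows had a median of 175 bp and 1 within 50 bp. Closeness was not particular to TGTTTAC in FOXA1 without the CTD. There the AP-1 word TGACTCA had a median of 28.5 bp, with 10 of 12 within 50 bp, against 9 of 14 for TGTTTAC. In the other FOXA lists the TGACTCA medians were 41.5 to 136 bp, and CCGGAAG medians were 51 to 72 bp in all 6. A FOXA summit within 50 bp of TGTTTAC was found at 62 genes. Of these GTF3C2 alone had it in all 6 lists, and CPOX, OSBPL9, WDR48 and DHX40 in 5. Among the 22 genes named by rank further on that had a summit at a start window, 0 had TGTTTAC or its variant TGTTTGC in the 250 bases before the start. This says only that those letters are absent from the windows. Some of the 22 were named for SOX2 or the fusion. Of all promoters, 5.53% hold either word in the window that also takes in 50 bases after the start. With 22 genes, 0 cannot be told from that share.

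**Figure D3:**
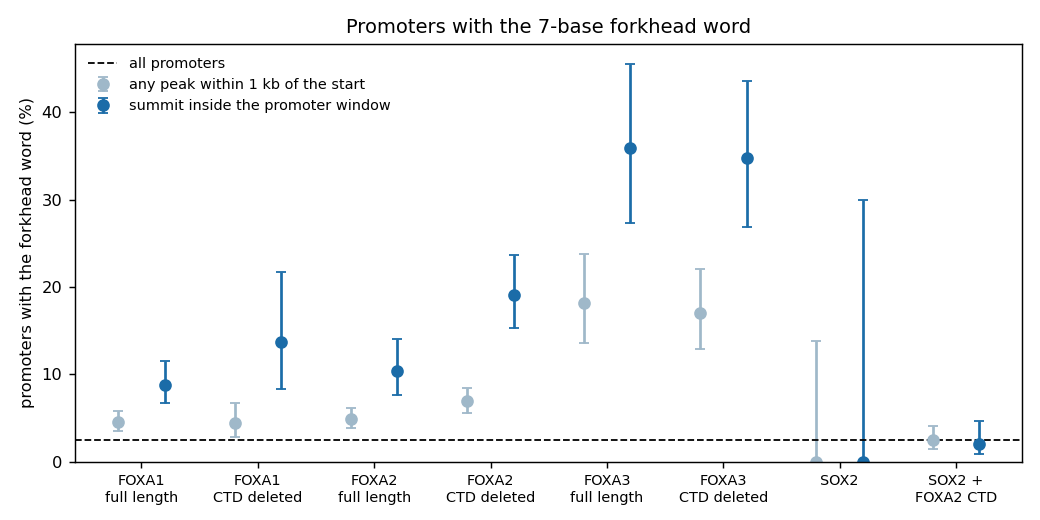
Promoters holding TGTTTAC on either strand (%, vertical axis) in each list, for genes with a peak within 1 kb of the start (pale) and with the summit inside the promoter window (dark); points are shares, lines 95% Wilson intervals, and the dashed line is the 2.5% of all promoters. The FOXA3 points with the summit inside, 35.9% and 34.7%, stand highest, and the fusion is at the dashed line.

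Other features also set these promoters apart from promoters at large. The CpG ratio (CG pairs observed over those the base composition predicts) was 0.6 or more in 66.6% of all promoters, in 61.5% of genes held by no list, and in 86.5% and 72.0% of FOXA1 start genes at full length and without the CTD. FOXA2 start genes had 85.7% and 81.7%, and fusion start genes 91.2%. GGGCGG was in 58.6% of all promoters and 72.4% of fusion start genes. CCGGAAG was in 14.7% of all promoters, and in 25.1% and 30.0% of promoters with a full-length FOXA1 or FOXA2 summit inside the window. The AP-1 word TGACTCA was in 3.67% of all promoters and in 12 of 102 (11.8%, 6.86% to 19.4%) with a summit of FOXA1 without the CTD. With the summit inside the window it was in 2.59% to 5.22% in the other FOXA lists and 2.85% in the fusion. Genes whose start lies within 1 kb of the start of another protein-coding gene on the other strand were 13.7% of all genes with a strand, 19.6% of full-length FOXA1 start genes and 22.2% of fusion start genes. How far these features overlap in the same promoters was not tested.

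The lists of full-length FOXA1 and of FOXA1 without the CTD were compared gene by gene. With 1 combined list a group, dependence of a peak on that domain was not tested. Of the 2260 genes held at full length, 690 (30.5%; 28.7% to 32.5%) were also held without the CTD, which is 3.45% of protein-coding genes; 1570 (7.86%) were held at full length only and 576 (2.88%) without the CTD only. That share rose to 55.4% with both lists at the stricter of their limits of irreproducibility (IDR, the estimated share of peaks that do not repeat), which are 0.2 at full length and 0.0501 without the CTD, and to 63.8% at an IDR of 0.01. Of the genes held at full length only, 35 (2.23%) had their peak overlapped by a CTD-deleted peak whose summit lay past 1 kb. The shared fraction was lower at starts than at far ends. Of 1452 genes held at the start, 347 (23.9%; 21.8% to 26.2%) were also in the CTD-deleted list, and of 380 held at the far end only, 205 (53.9%; 48.9% to 58.9%) were, a difference of -30.0 points (-35.4 to -24.5). At the stricter limit the same shares were 46.3% and 77.9%, a difference of -31.5 points (-39.6 to -22.1). The difference was present in each quartile of strength: 48.3% against 76.2% in the strongest quartile of the full-length list and 13.1% against 30.4% in the weakest. Of the shared genes, 639 of 690 had an overlapping peak in both lists. Strong genes were shared more often, with a median full-length percentile of 73.1 for shared genes and 39.1 for the others.

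Peak by peak, 20.9% (18.8% to 23.2%) of full-length FOXA1 start peaks were overlapped by a CTD-deleted peak, against 58.0% (53.2% to 62.7%) at far ends only and 57.6% away from gene ends. Overlap was lowest nearest the start, at 14.1% within 100 bp, 13.9% from 100 to 250 bp, 21.4% from 250 to 500 bp and 31.9% from 500 to 1000 bp. Start genes with a CpG ratio of 0.6 or more were shared in 22.4% of cases (243 of 1087) and the rest in 37.1% (63 of 170), a difference of -14.7 points (-22.5 to -7.34). A forkhead word in the promoter went with 26.3% shared against 24.2% without it, a difference of 2.08 points whose interval (-5.99 to 11.8) includes no difference. With both FOXA1 lists limited to an IDR of 0.01 the order of gene numbers reversed, with 3.83 times as many genes without the CTD as at full length against 0.560 times as deposited, while starts took 2.38% of the 3407 full-length peaks and 0.785% of the 26624 CTD-deleted peaks. The lower start share without the CTD thus held at that limit, and the lower number of genes did not.

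**Figure D4:**
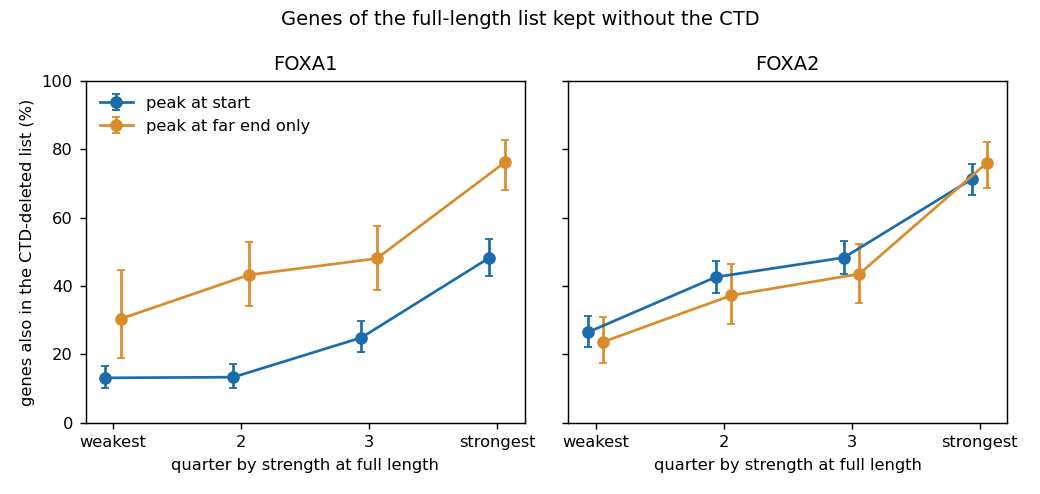
Genes of the full-length list also held without the CTD (%, vertical axis) by quartile of full-length strength (horizontal axis), for FOXA1 (left) and FOXA2 (right), with genes held at the start in blue and at the far end only in orange; lines are 95% Wilson intervals. In FOXA1 start genes lie below far-end genes in each quartile, 48.3% against 76.2% in the strongest, and in FOXA2 the intervals of the 2 kinds overlap in each quartile.

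The strongest genes held by FOXA1 at full length only were ZNF33B, MRLN, USP54, KARS1 and ITGA10. Here and for the other pairs, only is meant against the other list of the pair, and lists of other factors may hold the gene. ZNF33B, a zinc finger gene, had replicate -log10 p of 13.5 and 30.4 with its summit at 390 bp inside the start. MRLN, which encodes the calcium pump inhibitor myoregulin, had 11.8 and 11 near its far end. USP54 (10.6 and 11) had its summit at -83 bp. KARS1, the lysyl-tRNA synthetase gene, had 10.1 and 17.5 at -978 bp, and was also held by full-length FOXA2 (7.96 and 8.72). The other FOXA lists had a KARS1 summit just past 1 kb, 44 bp away in FOXA1 without the CTD (strength 3.23), 36 bp away in FOXA2 without the CTD (12.9) and 52 bp away in both FOXA3 lists (11.7), so that its place here comes from the distance limit. ITGA10, a collagen-binding integrin subunit, had 9.38 and 14.4 near its far end. The other 5 FOXA lists had a summit between 92 and 112 bp from that of ITGA10 and past the limit, with strengths of 6.36 for FOXA1 without the CTD, 5.92 and 12.2 for FOXA2 and 25.8 for both FOXA3 lists, so ITGA10 too is set apart by the distance limit alone.

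Genes held by FOXA1 only without the CTD included HOXC11, PSAP, TTLL2, PRR5L and ZBTB10. HOXC11, a homeobox gene, had 16.4 and 26.1, and its 2 FOXA2 lists had strengths of 4.61 at full length and 6.85 without the CTD. PSAP, the precursor of the lysosomal saposins, had 16.2 and 40.4, and was strong in FOXA2 at 13.7 and 27.6. TTLL2 (15.0 and 32.8) and PRR5L (13.7 and 18.5) were bound near their far ends. These 4 genes were therefore held by both FOXA2 lists, while full-length FOXA1 had no gene-end peak there. The transcription factor gene ZBTB10 had 12.2 and 30.3, and was held by both FOXA2 and both FOXA3 lists as well.

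The 5 genes strongest in both FOXA1 lists were TAF11L6, TAF11L4, TAF11L5, TAF11L7 and EFL1. TAF11L6 had a strength of 35.5 at full length and 44.9 without the CTD, and TAF11L4 27.4 and 24.1. The TAF11L genes are near-identical copies on chromosome 5, so that reads may not be assigned to 1 copy and their values are uncertain. EFL1, a GTPase gene of ribosome maturation, had 20.3 at full length (replicates 40.1 and 20.3) and 22.7 without the CTD (22.7 and 58.3), at -856 and -829 bp from its start. The same peak lies inside the neighbouring gene SAXO2.

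In FOXA2 the share of genes held by both forms was much the same at starts and far ends. Of 2568 genes held at full length, 1213 (47.2%; 45.3% to 49.2%), or 6.07% of protein-coding genes, were also held without the CTD; 1355 (6.78%) were held at full length only and 1135 (5.68%) without the CTD only. Start genes were shared in 47.4% of cases and far-end genes in 45.8%, a difference of 1.58 points (-3.33 to 6.44) that includes no difference. At the stricter IDR limit of each pair the share of all genes held by both forms was 54.6% for FOXA2 and 55.4% for FOXA1, so the gap between the factors in the deposited lists (47.2% against 30.5%) was not seen there. Overlap of full-length FOXA2 start peaks was 42.5% within 100 bp of the start and 49.0% from 500 to 1000 bp. The promoter word separated the FOXA2 genes: 72 of 108 start genes (66.7%) with a forkhead word were also held without the CTD, against 544 of 1205 (45.1%) with none, a difference of 21.5 points (11.8 to 30.2). TGTTTAC itself was in 2.30% of FOXA2 start promoters held at full length only, 7.99% of those held in both lists and 6.20% of those held without the CTD only. The ratio of gene numbers, 0.914 without the CTD over full length, became 1.37 when both lists were held to the stricter of their IDR limits (0.351 and 0.250).

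Among the strongest genes held by FOXA2 at full length only were RIMBP3, KARS1 (for which the CTD-deleted summit lies just past 1 kb, as given above), FGL2 and PPDPF. RIMBP3 had replicate -log10 p of 9.17 and 8.72 at -435 bp from its start, and was held by both FOXA1 lists at -436 and -456 bp. FGL2, a fibrinogen-like gene, had 9.57 and 7.08 and was held by both FOXA1 lists (14.5 and 13.2). PPDPF had 5.56 and 13.3. These 4 stood above the 97th percentile of the full-length list in FOXA2, while the strongest genes of the CTD-deleted list reached higher values.

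Without the CTD only, FOXA2 held CIAO2A, AIMP2, SUPT4H1, TRIB1 and SOX9. CIAO2A, a gene of cytosolic iron-sulphur assembly, had 17.8 and 29.7 at its far end; the nearest full-length FOXA2 summit to that of CIAO2A was 1087 bp away (9.25). AIMP2, a scaffold of the aminoacyl-tRNA synthetase complex, had 23.7 and 14.2 at -988 bp from its start. Full-length FOXA2 had a summit 31 bp from that of AIMP2 (strength 3.04), FOXA1 without the CTD 57 bp away (10.2) and both FOXA3 lists 30 bp away (6.40), all just past 1 kb. SUPT4H1, a subunit of the elongation factor DSIF, had 13.9 and 14.8 at 28 bp, and had a strength of 20.7 in FOXA3 without the CTD against 3.23 in full-length FOXA3. TRIB1, a pseudokinase gene, had 12.6 and 13.5. SOX9, a transcription factor gene of cartilage, had 11.2 and 13.2, and was held by both FOXA1 lists at 5.53 and 7.53. The genes strongest in both FOXA2 lists were EFL1 and SAXO2 with their shared peak (15.5 at full length, 27.7 without the CTD), PSAP (13.7 and 27.6) and the copies TAF11L5 (17.7 and 26.2) and TAF11L6 (19.8 and 26.0).

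The FOXA3 lists cannot be read as independent measurements. They have 5012 rows that are identical in every column, and 331 of the 350 full-length gene-end peaks come from those rows, leaving 19 of its own and 70 in the CTD-deleted list. Of 387 full-length genes, 382 (98.7%), or 1.91% of protein-coding genes, were also held without the CTD; 5 (0.025%) were held at full length only and 65 (0.325%) without the CTD only. With the shared rows left out of both lists, 20 genes were held at full length and 81 without the CTD, and 15 of the 20 were in both. The full-length-only genes were TOMM34 (3.34 and 14.8), HBP1 (3.23 and 18), BMP7 (2.82 and 18.6), EIF2AK1 (2.69 and 15.3) and MYL12A (2.28 and 23.9). In each the 2 replicates were far apart. The strongest genes held without the CTD only were ASXL3, KRTAP20-2, MBD5, NDUFV2 and TMEM94, tied at a strength of 6.15, at the 13.9th percentile of the list.

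Strongest in both FOXA3 lists were SLC22A10, IMP3, GPR146 and, at 1 peak, LOC124902042 with ZNF250. SLC22A10 had 20.7 and 27.0, at the top of the full-length list. In the other FOXA lists SLC22A10 had strengths of 8.12 and 6.95 for FOXA1, and 5.95 and 5.87 for FOXA2, at full length and without the CTD. IMP3, a gene of the U3 small nucleolar ribonucleoprotein, had 19.3 and 21.5 beyond its far end and was held by both FOXA2 lists at 4.59 and 9.32. GPR146, a receptor gene, had 18 and 18.4 at -18 bp and was held by both FOXA1 lists at 8.41 and 3.62. ZNF250 and LOC124902042 had 17.4 and 21.6.

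Adding the FOXA2 CTD to SOX2 went with more gene-end peaks. SOX2 held 32 genes, 22 of which (68.8%; 51.4% to 82.0%), or 0.11% of protein-coding genes, were also held by the fusion; 10 (0.0501%) were held by SOX2 only and 872 (4.37%) by the fusion only. The start share was 5.98 points higher in the fusion (4.97 to 6.80). The fusion list was deposited with an IDR limit of 0.92 and the SOX2 list with 0.100. At the SOX2 limit the fusion held 7 genes, 0.219 times the SOX2 number, and 1 of the 32 SOX2 genes (3.12%). Among equal numbers of the strongest peaks the fusion held 55 genes, 6 of them among the 32 (18.8%). Of the 774 fusion peaks that meet the SOX2 limit 5 lay at a start, 0.646% (0.276% to 1.5%) against 1.68% for SOX2, so the order reversed. Among equal numbers of the strongest peaks (1365 a list) the fusion had 31 start peaks and SOX2 23, with overlapping intervals of 1.60% to 3.21% and 1.13% to 2.52%. The larger number of fusion peaks at starts thus rests on peaks that miss an IDR of 0.100. Of fusion start peaks 2.5% were overlapped by a SOX2 peak, against 14.9% of its peaks away from gene ends.

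The SOX2-only genes at the top, that is those the fusion did not hold, were GNA12 (replicate -log10 p 4.33 and 4.99), CDC45 and UFD1 with 1 shared peak (5.86 and 4.16), SEZ6L (3.44 and 5.79) and BLOC1S5 (3.11 and 5.35). Some were held by FOXA lists: GNA12 by both FOXA1 lists and FOXA2 without the CTD, and CDC45 and UFD1 by full-length FOXA1. CDC45 and UFD1, a replication helicase subunit and a protein extraction cofactor, are neighbours on chromosome 22. Chromosome 22 held 10 of the 32 SOX2 genes (31.2%) while it has 2.26% of protein-coding genes, and it held 41 of the 894 fusion genes (4.59%). MTF2, a Polycomb accessory factor held by the fusion and not by SOX2, had 27.3 and 16.0 at -149 bp, far above the next, INTS15 with ZDHHC4 at 1 peak (7.35 and 6.39). Full-length FOXA2 also held MTF2, INTS15 and ZDHHC4, and full-length FOXA1 also held MTF2. HSD3B1, a steroid enzyme gene, had 22.3 and 6.21, and DGCR8, the RNA-binding subunit of the microRNA Microprocessor, had 5.83 and 5.6 at -113 bp. DGCR8 was also held by FOXA1 without the CTD and by both FOXA2 lists. In both lists, HNRNPF had strengths of 4.01 in SOX2 and 3.38 in the fusion, ADRM1 4.08 and 3.20, YDJC 3.96 and 4.95, and GUCD1 with SNRPD3, at 1 peak, 3.93 and 4.49. The SOX2 gene itself was held by SOX2 and the fusion at 3.62 in both, and by no FOXA list. The transgene carries SOX2 coding sequence, and reads from it cannot be told apart here from binding at the gene.

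Most genes were held by few lists, and a small set recurred. Of the 5194 genes, 2630 were held by 1 list, 1224 by 2, 675 by 3, 382 by 4, 147 by 5, 119 by 6, 14 by 7 and 3 by 8. All 3 FOXA factors, counting either form, held 329 genes (1.65% of protein-coding genes), and all 4 factors held 48 (0.24%). All 6 FOXA lists held 114. Of the 136 genes held by 6 or more lists, 89 had at least 6 summits within 300 bp of each other, 30 had 5 and 17 had 4 or fewer, so recurrence at a gene was mostly recurrence at a site. These counts of lists and summits take the 2 FOXA3 lists separately. Yet 331 of the 350 full-length FOXA3 gene-end peaks are rows identical in both, so most FOXA3 peaks are counted 2 times. FOXA1 and FOXA2 shared 1789 genes, 63.1% of the FOXA1 genes and 48.3% of the FOXA2 genes. FOXA2 also held 91.2% of the FOXA3 genes. Genes held by FOXA1 in both forms were held by FOXA2 in both forms in 52.5% of cases, against 20.6% of genes held by FOXA1 at full length only.

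BMS1, ADRM1 and DAGLB were held by all 8 lists, and each at more than 1 site. BMS1, a GTPase gene of ribosome assembly (chr10:42782795-42834937), had its summit between 465 and 535 bp inside the start in 5 FOXA lists, at -761 bp from the far end in FOXA1 without the CTD, at -115 bp from the start in SOX2 and at -66 bp in the fusion. Its strengths were 8.12, 20.1, 3.00, 3.88, 6.46 and 6.46 in the FOXA lists, taken from FOXA1 to FOXA3 with full length first, 3.58 in SOX2 and 3.86 in the fusion. ADRM1, a ubiquitin receptor of the proteasome (chr20:62302896-62308862), had 7.35, 4.44, 3.84, 2.36, 8.30 and 8.30 in the same order, 4.08 in SOX2 and 3.20 in the fusion. DAGLB, a diacylglycerol lipase (chr7:6409129-6447954), had 8.75, 7.53, 1.78, 3.57, 8.27 and 8.27, then 2.96 and 2.49. The BMS1 far-end peak without the FOXA1 CTD was the strongest of these values.

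At SF3B6 and its head-to-head neighbour FAM228B 1 peak was counted for both genes in 7 lists. SF3B6, which encodes the branch-point protein of the U2 snRNP (chr2:24067586-24076326), had its summit between -8 and 15 bp from the start in the 6 FOXA lists and at -108 bp in the fusion. Its strengths were 6.99, 5.94, 5.31, 5.77, 13.1 and 13.1, and 3.75 in the fusion. CREBL2, a bZIP gene (chr12:12611876-12645108), had summits between -89 and 94 bp in 7 lists and strengths of 4.25 and 4.06 for FOXA1, 8.70 and 12.2 for FOXA2, 14 in both FOXA3 lists and 3.8 in the fusion. The 2 replicates of full-length FOXA1 at CREBL2 were far apart, 4.25 and 23. SF3B6 and CREBL2 thus had their FOXA summits at the start itself.

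RPS27L, a paralog of the ribosomal protein gene RPS27 (chr15:63148249-63157477), was held at its far end by both FOXA1 lists (8.85 and 16.6) and full-length FOXA2 (6.57), and at its start by FOXA2 without the CTD (11.8, with a further peak at the far end), both FOXA3 lists (15.9) and the fusion (2.47). TIPARP, a mono-ADP-ribosyltransferase gene (chr3:156674590-156706770), had summits between -318 and -286 bp of its far end in the 6 FOXA lists, with strengths of 3.48 and 8.00 for FOXA1, 4.33 and 7.53 for FOXA2 and 9.42 in both FOXA3 lists. The fusion peak at TIPARP was at the start. FRMD6, a FERM-domain gene upstream of Hippo signalling, had FOXA summits between -207 and -31 bp. COMMD2 was held at the start by 4 lists and the far end by 3. LTN1, a ubiquitin ligase of ribosome quality control, and INTS1, the largest Integrator subunit, were held by each list other than FOXA1 without the CTD, LTN1 with FOXA summits between -48 and 43 bp of the start.

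**Figure D5:**
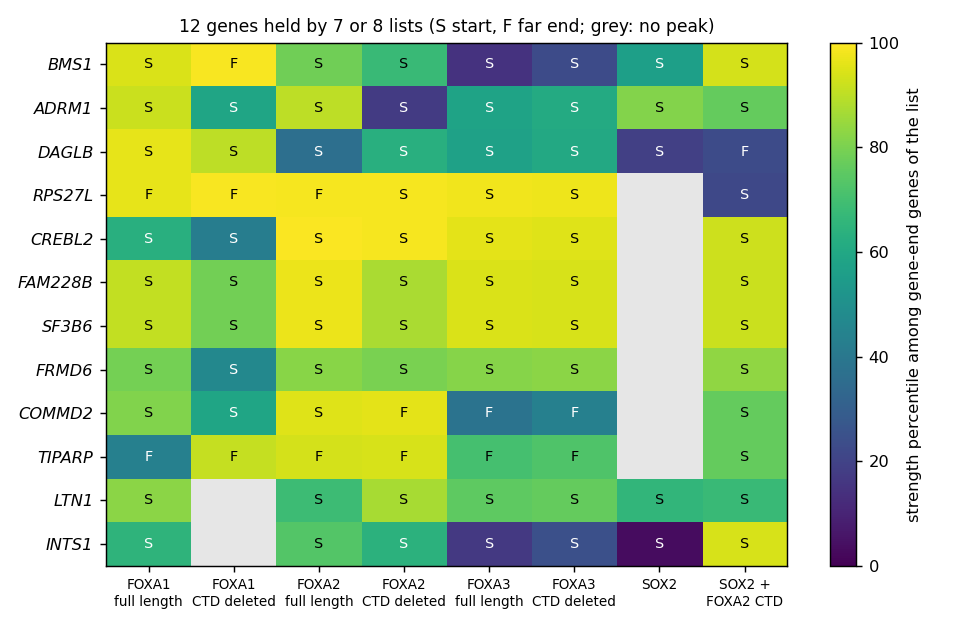
Strength percentile among the gene-end genes of each list (colour, 0 to 100) for the 12 named recurring genes (rows) in the 8 lists (columns); S marks a start peak, F a far-end peak and grey no peak. RPS27L and CREBL2 stand high in FOXA2 and FOXA3, and LTN1 and INTS1 are grey in FOXA1 without the CTD.

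Genes held by 1 factor alone were most numerous for FOXA2. By share of the genes a factor held, they were 46.9% for SOX2 with its fusion and 45.0% for FOXA2. The shares were 33.0% for FOXA1 and 3.98% for FOXA3. FOXA2 had 1665 such genes (804 at full length only, 571 without the CTD only, 290 in both), FOXA1 935 (639, 195 and 101), SOX2 with its fusion 424 (6 SOX2 only, 411 fusion only, 7 in both) and FOXA3 18. The lists differ in length and IDR limit, and the part of this in those numbers was not tested. For example, the FOXA1 list without the CTD has 50105 peaks at an IDR limit of 0.0501, and the full-length list 37219 at a limit of 0.2. The strongest FOXA1 genes were ME3, the mitochondrial malic enzyme (11.9 at full length and 7.27 without the CTD, at the far end), TEFM, a mitochondrial transcription elongation factor (3.98 and 11.3, at the far end), SVIL, an actin-binding protein gene (11.2 and 4.86, at the far end), BTBD19 (11 without the CTD) and ITGA10 (9.38 at full length). All 5 were held at the far end. BTBD19 and ITGA10 are FOXA1 genes only by the 1 kb limit: FOXA2 summits lay 145 bp (7.00, full length) and 183 bp (10.5, without the CTD) from that of BTBD19, and the FOXA2 and FOXA3 summits near ITGA10 are given above.

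FOXA2 alone held CTDSP2, a phosphatase gene, at 10.8 at full length and 4.33 without the CTD, with summits at 80 and -40 bp from the start. ADAM7 (8.37 without the CTD), ZBTB2 (2.34 and 7.53), AHI1, a ciliary gene (4.08 and 7.47), and RDH11, a retinol dehydrogenase (2.94 and 7.32), were the next, and all but CTDSP2 were stronger, or held alone, without the CTD. FOXA3 alone held SULT4A1, a sulphotransferase gene (14.8), LRMDA (12.6), PABPC1, the poly(A)-binding protein (10.9), TEX38 (8.61) and ANKHD1 (8.30), with values from rows that both FOXA3 lists contain. The fusion alone held HSD3B1 (6.21), the interferon-induced GTPase gene GBP2 (5.31), the receptor gene LPAR5 (5.22), ARID1A, a subunit of the SWI/SNF remodeller (4.95), and C8orf58 (4.91).

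Among gene families, cytosolic ribosomal protein genes were held more often than protein-coding genes at large by the full-length FOXA1 and FOXA2 lists and the fusion. Of 86 members found by symbol, paralogs such as RPS27L included, full-length FOXA1 held 21 (24.4%, against 11.3% of all genes) and FOXA1 without the CTD 7 (8.14%, against 6.34%). FOXA2 held 19 (22.1%, against 12.9%) and 13 (15.1%, against 11.8%), the fusion 12 (13.95%, against 4.48%) and SOX2 none. RPL4 had 15.1 and 5.36 for FOXA1, and 3.64 and 9.96 for FOXA2, at full length and without the CTD. HOX genes were held most by full-length FOXA2, 12 of 39 (30.8%, against 12.9% of all genes), with 8 (20.5%, against 11.8%) without the CTD. The FOXA1 lists held 5 (12.8%, against 11.3%) and 1 (2.56%, against 6.34%) of the HOX genes and the fusion 2 (5.13%, against 4.48%); HOXC4, HOXC5 and HOXC6 count 1 peak 3 times. Of 69 replication-dependent histone genes FOXA2 held 5 at full length (7.25%, against 12.9% of all genes) and 11 without the CTD (15.9%, against 11.8%), and FOXA1 7 (10.1%, against 11.3%) and 3 (4.35%, against 6.34%).

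Zinc finger and olfactory receptor genes lay below the share of all genes in the FOXA1 and FOXA2 lists. Of 509 zinc finger genes full-length FOXA1 held 41 (8.06%, against 11.3%) and full-length FOXA2 54 (10.6%, against 12.9%). Full-length FOXA1 held 11 olfactory receptor genes (2.81% of that family, against 11.3% of all genes). FOXA1 without the CTD held 22 (5.61%, against 6.34%), so it lay only slightly below the share of all genes. FOXA2 held 19 olfactory receptor genes at full length (4.85%, against 12.9%) and 21 without the CTD (5.36%, against 11.8%). Of 20 endoderm and liver genes for which FOXA factors are known, at least 1 list held 3 (15%, against 26% of all genes). Full-length FOXA1 held all 3 (15%, against 11.3% of all genes), TAT and APOB among them. FOXA2 without the CTD held TAT (5%, against 11.8%), and the other lists held no gene of the 20. With so few genes these shares cannot be told from those of all genes. Of 13 pluripotency and neural targets of SOX2, at least 1 list held LEFTY1, NANOG and ZIC2 (23.1%, against 26% of all genes), all in FOXA lists. Neither SOX2 list held any of the 13. Of all genes SOX2 held 0.16% and the fusion 4.48%, so with 13 genes 0 cannot be told from those shares. Of 12 osteoblast genes, which a line from bone could use, RUNX2, SPP1 and BGLAP were held by at least 1 list (25%, against 26% of all genes). Peak lists do not measure RNA, so the labelled cell type could not be checked.

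CCN1, a secreted target of YAP and TEAD, was the member held by most lists among 12 such genes, of which each FOXA1 list held 2 (16.7%, against 11.3% and 6.34% of all genes), each FOXA2 list 3 (25%, against 12.9% and 11.8%) and each FOXA3 list 2 (16.7%, against 1.94% and 2.24%). Its strengths were 3.45 and 10.9 for FOXA1, 3.84 and 11.1 for FOXA2, at full length and without the CTD, and 7.75 in both FOXA3 lists. Both SOX2 lists lacked it. Of 11 AP-1 subunit genes FOSL2 was held by 5 lists and JUN by 4; FOXA1 without the CTD and the fusion each held 3 of the AP-1 genes (27.3%, against 6.34% and 4.48%). FOSL2 had start summits between -69 and 5 bp in 4 FOXA lists, with strengths of 2.44 and 4.08 for FOXA1, 3.91 for FOXA2 without the CTD and 5.61 for FOXA3 without the CTD.

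By chromosome, the held share of protein-coding genes was 35.8% on chromosome 15, 9.51% on chromosome 19 and 9.32% on X. At the edge of the rule, the last 100 bp inside the 1 kb limit had 125 full-length FOXA1 peaks with a median strength of 3.57, and the first 100 bp outside had 118 with 3.97. For FOXA1 without the CTD these were 123 (4.08) and 120 (4.35), for full-length FOXA2 149 (2.20) and 158 (2.22), and for FOXA2 without the CTD 190 (2.96) and 180 (3.04). FOXA3 had 21 and 17 at full length and 24 and 20 without the CTD, the fusion 25 and 22, and SOX2 2 and 0.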

How the data were processed

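Flag ChIP-seq was measured in 8 groups of U2OS cells with 2 replicates each and 1 input. Per the submitters' processing notes, reads were aligned to hg38 with Bowtie2 2.4.4 after FastQC 0.10.1 and Trim Galore, and SAMtools 0.1.18, MACS2 and deepTools 2.4.1 were used; the order of steps is not given in the sources used here. The deposited lists combine both replicates of a group by IDR and give a score (1000 at most, falling as IDR rises), -log10 p of each replicate and -log10 IDR. The deposited fold column holds a placeholder and was not used. Counts of reads and depths are not given, so intervals cover the number of peaks or genes alone.

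Summits were compared with RefSeq GRCh38.p14 gene ends in Python 3.11.15 (pandas 2.3.3, numpy 2.4.6; figures with matplotlib 3.10.9). Overlap between lists needed at least 1 bp. Shares have 95% Wilson intervals and differences Newcombe intervals. Named genes are the 12 held by most lists (ties by median percentile), the 5 strongest held by 1 factor, and in each pair the 5 strongest held by either list alone and by both; from the gene lists, the members held by most lists were named. Some genes that the rule selects are not reported here. Sequences are RefSeq windows. The counting code was tested on simulated peaks. Members, lists and tests were chosen with earlier results of these data known. Alternatives changed the distance, the IDR limit, the number of peaks and the FOXA3 rows.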

Additional observations from a re-analysis of the deposited data

Results flagged for a closer look

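The ratio of gene numbers held without the CTD over those held at full length was 1.16 for FOXA3, in the opposite direction to FOXA1 (0.560) and FOXA2 (0.914). The difference between the factors was not tested, since each group has 1 combined list. The FOXA3 lists have 5012 identical rows and IDR limits of 0.100 and 0.01. At the stricter IDR limit of each pair the ratios were 2.05 for FOXA1, 1.37 for FOXA2 and 1.21 for FOXA3, all in 1 direction.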

How the results depend on the processing

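No paired analysis was possible because each group has 1 combined list and the replicate columns carry no replicate number. With the summit limit at 500 bp, 2.5 kb, or any base of the peak within 1 kb, the share of full-length genes also held without the CTD was 24.2%, 43.8% and 34.4% for FOXA1 (30.5% at 1 kb) and 39.5%, 57.4% and 50.5% for FOXA2 (47.2%); the ratio of gene numbers was 0.444, 0.754 and 0.614 for FOXA1, and 0.822 and 1.00 (reversed, just above 1) at 500 bp and 2.5 kb for FOXA2. SOX2 genes also held by the fusion were 50% at 500 bp. At an IDR of at most 0.01 the FOXA1 share was 63.8%, the ratio reversed to 3.83 and the start difference was -1.59 points; FOXA3 shared 100%; the SOX2 start difference was 0.524; the FOXA2 pair gave no value, and nor did SOX2 genes. At the stricter IDR limit of each pair FOXA1 gave 55.4%, a reversed ratio of 2.05 and -1.83 points; FOXA2 54.6%, a reversed ratio of 1.37 and -0.415; FOXA3 100%; SOX2 3.12%, with reversed values of 0.219 for the ratio and -1.04 for the start difference. With equal numbers of the strongest peaks FOXA1 gave 24.3% and 0.404, FOXA2 42.0% and 0.781, and SOX2 18.8%, 1.72 and 0.586. Lists of the first replicate alone gave a SOX2 ratio of 5.39. With identical rows left out of the full-length FOXA3 list alone the values were 75% and a ratio of 22.4; left out of both lists, 75%, 4.05 and 2.15 points. The difference between starts and far ends in shared genes ran from -34.4 to -26.3 points for FOXA1 under the IDR limits and equal numbers. Genes of all 3 FOXA factors numbered 213, 591 and 102, and of all 4 factors 25, 97 and 0, at 500 bp, 2.5 kb and IDR of at most 0.01. Causes were not tested, apart from fewer peaks meeting a stricter limit. Of the 84 named genes, 71 were held by fewer lists at an IDR of at most 0.01, 18 of them by none.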
